A study of Arabidopsis thaliana with 6 samples.

Results

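Extensins are wall glycoproteins made of serine and proline-rich repeats whose prolines are hydroxylated and then carry short arabinose chains. Peroxidases cross-link the tyrosines of these proteins into a network, and several extensin genes are known for expression in root hair cells, where the network supports tip growth of the hair. Root hairs emerge in the differentiating zone, shootward of the dividing meristem. The genes described here are 10 Arabidopsis thaliana genes of this extensin type, chosen by symbol or locus, and 6 of the 10 had a probe set that the platform annotation ties to exactly 1 gene. These are HRGP1 (AT3G54590), AT1G23720, AT5G06630, AT3G54580, AT4G08410 and AT3G28550, out of 22746 probe sets tested. EXT10 (AT5G06640), EXT6 (AT2G24980) and EXT12 (AT4G13390) were not analysed here. AT4G08400 was covered by a probe set shared with AT4G08410, which stood at 2.27 log2 on all 6 arrays. No gene of the PRP family of proline-rich wall proteins is among the 10, and the 4 PRP genes listed beside them had no probe set named here.

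The study set G2/M root cells, those about to divide or dividing, against whole root meristems of accession Col-0, on 6 arrays with 3 per group. The sorted group came by fluorescence-activated cell sorting from roots with a CYCB1;1-GFP reporter, which marks cells around mitosis. The meristem group was dissected under a microscope, and the labels do not say whether these plants carried the reporter. Plants of both groups grew on vertical plates of sucrose medium, under light given in the labels both as long days and as continuous, and neither their age nor the number of roots per sample is given in the labels. The series calls the 3 samples of each group biological replicates, so p-values measure the spread between them. Sorting and cell type cannot be told apart in this design.

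Levels are log2 values as the authors deposited them, made with GCRMA, a method that corrects background from probe sequence and normalizes across arrays. The lowest value in the table, 2.27, is called the floor, and a level within 0.5 of it is treated as background. The median of all values was 3.71. Sorted replicates 1 and 2 were the least alike within their group (Pearson's r = 0.967 across probe sets, against 0.988 and 0.989 for the other sorted pairs and 0.996 to 0.997 among the meristems). Poly-A spike-ins, control RNAs added before labelling, gave signal on the meristem arrays and in sorted replicate 1 and were near the floor in sorted replicates 2 and 3. The median level of their probe sets was 5.92 in sorted replicate 1, 2.88 and 2.83 in sorted replicates 2 and 3, and 6.43 to 7.20 in the meristems. Arrays have no read depth, and their number limits the precision.

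The extensin genes were low in the meristems, and all 6 had their highest level in sorted replicate 1, AT3G54580 within background. In sorted replicate 1, 5 of the 6 genes stood at least 1 log2 above the meristem mean, by 1.83 to 4.05 log2, against 5.81% of all probe sets. In 3 of these 5 genes sorted replicate 2 stayed within 0.5 log2 of the meristem mean (1.97% of all probe sets had both features). In sorted replicate 3 a rise of at least 1 log2 held for 3 genes (4.15% of all probe sets), and in sorted replicate 2 for 0 (4.63%). None of the 6 genes was called between the groups: limma gave 0 adjusted p-values under 0.05, and 0 unadjusted ones, where 11.5% and 24.9% of all probe sets passed. The groups overlapped for all 6 genes, whereas they did not overlap for 30.7% of all probe sets.

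**Figure D1:**
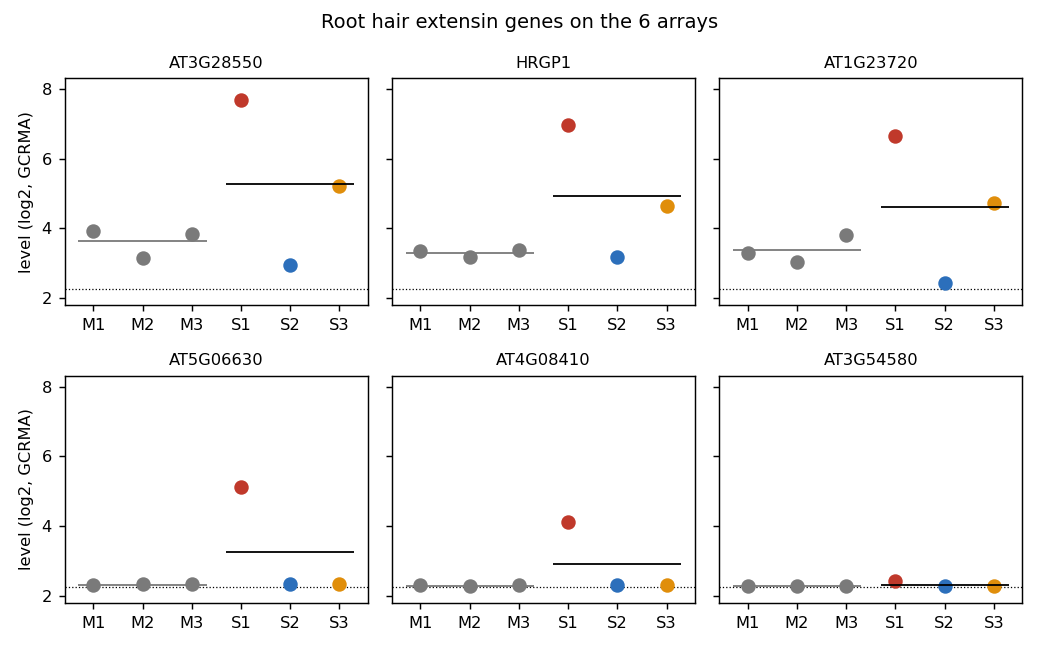
Level of each extensin gene (log2, GCRMA) on meristem arrays M1 to M3 (grey) and sorted arrays S1 to S3 (coloured); horizontal bars are group means (n = 3 each) and the dotted line is the floor at 2.27. Sorted replicate 1 is the highest array for all 6 genes, with sorted replicate 3 next for AT3G28550, HRGP1 and AT1G23720, and a rise of only 0.14 for AT3G54580.

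A graded group was formed by HRGP1, AT1G23720 and AT3G28550, which differed between all 3 sorted samples. HRGP1 encodes a hydroxyproline-rich glycoprotein with extensin repeats. It stood at 6.96, 3.19 and 4.65 log2 in sorted replicates 1, 2 and 3 and at 3.35, 3.19 and 3.37 in the meristem replicates. Sorted replicate 2 thus matched the lowest meristem, sorted replicate 3 lay 1.35 above the meristem mean and sorted replicate 1 lay 3.66 above it (12.6-fold). The group difference was 1.63 log2 (SE 1.05, 95% interval -1.18 to 4.44, limma adjusted p = 0.466).

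AT1G23720, a proline-rich extensin-like gene, stood at 6.64, 2.44 and 4.73 in the sorted replicates and at 3.29, 3.03 and 3.82 in the meristems. Sorted replicate 2 was below every meristem array and within 0.5 of the floor, while the other sorted samples were above every meristem array. Against the meristem mean the sorted replicates differed by 3.26 (9.58-fold), -0.94 and 1.35 log2. The group difference of 1.22 log2 (SE 1.18, 95% interval -1.94 to 4.39) was smaller than the SD of the sorted group, 2.10 (n = 3), and had a limma adjusted p of 0.613.

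AT3G28550 had the widest range of the 6 genes. Its levels were 7.69, 2.96 and 5.21 in the sorted replicates and 3.94, 3.14 and 3.83 in the meristems. As for AT1G23720, sorted replicate 2 lay below every meristem and the other sorted samples above. Sorted replicate 1 exceeded the meristem mean by 4.05 log2 (16.6-fold) and sorted replicate 3 exceeded it by 1.57 (2.98-fold). The group difference was 1.65 log2 (SE 1.33, 95% interval -1.90 to 5.20, limma adjusted p = 0.592). In the meristems too, replicate 2 was the lowest array for all 3 of these genes.

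The single-gene probe sets of AT5G06630 and AT4G08410 were above background in sorted replicate 1 alone among the 6 arrays. AT5G06630 read 5.13 there, and 2.33 and 2.34 in sorted replicates 2 and 3, beside 2.30, 2.33 and 2.34 in the meristems. AT4G08410 read 4.13 in sorted replicate 1, 2.30 in both other sorted samples and 2.30, 2.29 and 2.30 in the meristems. The probe set that AT4G08410 shares with AT4G08400 read 2.27 there as on every other array, so the probe sets that cover AT4G08410 disagree. Both rises start from the floor, so no fold is given. The group differences were 0.94 log2 (SE 0.89, 95% interval -1.44 to 3.33) for AT5G06630 and 0.61 log2 (SE 0.58, 95% interval -0.95 to 2.17) for AT4G08410, both with a limma adjusted p of 0.613.

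AT3G54580 stayed at background on every array. It read 2.42 in sorted replicate 1 and 2.28 on the other 5 arrays. It is the direct neighbour of HRGP1 on chromosome 3, so 2 adjacent extensin genes gave unlike values in sorted replicate 1. The probe sets differ in kind: those of HRGP1, AT1G23720, AT5G06630 and AT4G08410 carry the Affymetrix suffix _x_at, given where some probes also match other sequences, and those of AT3G54580 and AT3G28550 do not. Because extensins share repeats, the 4 genes with this suffix may share signal with each other or with the genes not analysed here. AT3G28550, without the suffix, was also highest in sorted replicate 1, then in sorted replicate 3. AT5G06640, which was not analysed here, neighbours AT5G06630 on chromosome 5, and AT4G08400 and AT4G08410 lie 1 gene apart on chromosome 4.

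The spread within the sorted group was wide for 5 of the 6 genes. The SD between sorted replicates was 1.90 log2 for HRGP1, 2.10 for AT1G23720, 1.61 for AT5G06630, 1.06 for AT4G08410 and 2.37 for AT3G28550 (n = 3 each). Only 0.637%, 0.444%, 0.994%, 2.49% and 0.242% of all probe sets, in that order, had a larger one. AT3G54580 had an SD of 0.08, exceeded by 55.5% of probe sets. The meristem SD was 0.10 for HRGP1, 0.40 for AT1G23720 and 0.43 for AT3G28550, and at most 0.02 for the 3 genes at the floor. Over the 6 genes the median SD was 1.76 for sorted arrays and 0.06 for meristem arrays, beside 0.11 and 0.06 over all probe sets. For the 5 extensins above background on some array it was 1.90 and 0.10, beside 0.22 and 0.11 over all such probe sets.

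**Figure D2:**
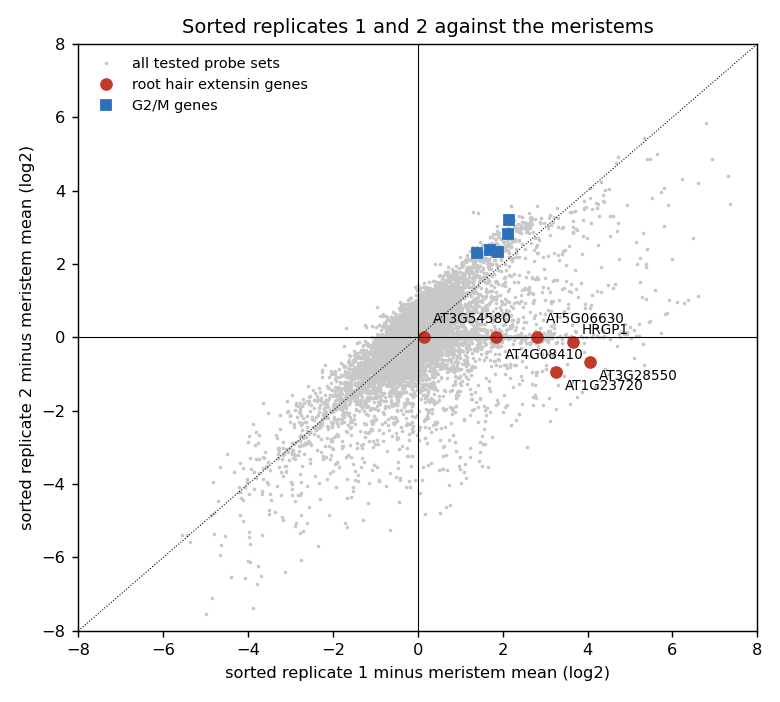
Sorted replicate 1 minus the meristem mean (horizontal, log2) against sorted replicate 2 minus the meristem mean (vertical, log2) for all tested probe sets (grey), the 6 extensin genes (red) and 5 G2/M genes (blue); the dotted line marks equal values. Of the extensin genes, 5 lie at 1.83 to 4.05 on the horizontal axis and at or below about 0 on the vertical one, while the G2/M genes are raised on both axes.

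The rise of the group mean therefore rested largely on sorted replicate 1. The median difference of the 6 genes was 1.08 log2 with all arrays and 0.11 log2 without that sample, where the median over all tested probe sets was 0.00. Without it 0 of the 6 genes were called, where 14.9% of all probe sets were, and HRGP1 differed by 0.62 log2 (SE 0.52, limma adjusted p = 0.547), AT3G28550 by 0.45 (SE 0.85, adjusted p = 0.903) and AT1G23720 by 0.21 (SE 0.85, adjusted p = 1). AT5G06630 and AT4G08410 then differed by 0.01 and 0.00 log2. Leaving out sorted replicate 2 instead raised the differences of HRGP1, AT1G23720 and AT3G28550 to 2.502, 2.305 and 2.813 log2. For these 3 genes the size thus also depended on sorted replicate 2. With spike-in presence as a block, the difference is that of sorted replicate 1 from the meristems. AT5G06630 (limma adjusted p = 2.67e-05), AT4G08410 (3.82e-06) and AT3G54580 (1.03e-04, a rise of 0.14 log2 within background) were then called, where 13.4% of all probe sets were. That fit has a single sorted array with spike-ins and takes its spread from the meristems and the other sorted pair, all of which sat near the floor for these 3 genes. Array weights, which lower the influence of arrays far from their group, called HRGP1 (limma adjusted p = 0.0258), AT1G23720 (0.0402) and AT3G28550 (0.0371), where 40.1% of all probe sets were called. Sorted replicates 2 and 3 differed from each other by 1.46 log2 for HRGP1, 2.29 for AT1G23720 and 2.25 for AT3G28550. For AT5G06630 they differed by 0.01, and for AT4G08410 and AT3G54580 by 0.00.

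**Figure D3:**
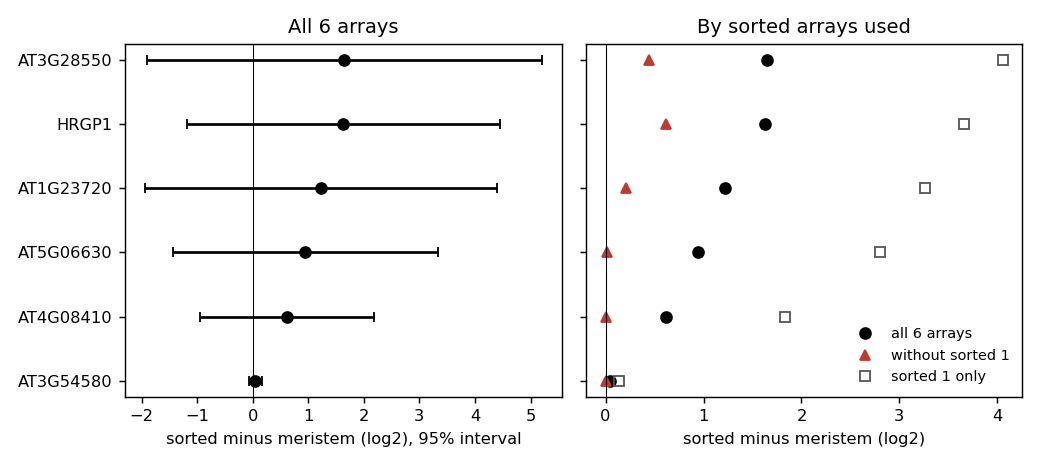
Left, sorted minus meristem difference of each extensin gene (log2) with its 95% interval from the limma fit to all 6 arrays. Right, the same difference (circles) beside that without sorted replicate 1 (triangles) and that of sorted replicate 1 alone (squares, the estimate with the spike-in block); every interval on the left includes 0, and the triangles lie between 0.00 and 0.62.

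AT5G06630 and AT4G08410 left background only in sorted replicate 1, while HRGP1, AT1G23720 and AT3G28550 were above it on every meristem array too. Sorted replicate 1, the highest array for all these 5 genes, weighs heavily in their correlation, which was not computed without it. Pearson's r between pairs of them lay between 0.859 and 0.9999 over 10 pairs, as a description over 6 arrays that share the same libraries. In sorted replicates 2 and 3 the genes differed: AT1G23720 lay -0.94 and 1.35 log2 from its meristem mean, AT5G06630 0.01 and 0.02. The highest was that of AT5G06630 and AT4G08410, whose values are near the floor except in sorted replicate 1. HRGP1 and AT3G28550 had r = 0.985, and AT1G23720 and AT3G28550 had r = 0.986. For HRGP1, AT1G23720 and AT3G28550 the sorted samples stood in the order replicate 1, 3, 2 with steps of at least 1.46 log2; 21.2% of the 14150 probe sets above background on some array had this order.

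Of the listed genes of hair growth, both measured expansins were high in sorted replicate 1. EXPA7 and EXPA18 encode expansins, proteins that loosen the wall, and are known as root hair cell markers. EXPA7 read 7.07, 2.42 and 2.69 in the sorted replicates and 2.27 to 2.29 in the meristems. EXPA18 read 6.67, 2.31 and 2.35 in the sorted replicates and 2.28 in all meristems. Both were thus above background in sorted replicate 1 alone, and XTH26, a xyloglucan endotransglucosylase that also acts on the wall, stood at the floor on all 6 arrays. SCN1, the other measured gene of hair growth, was expressed on all arrays. It read 9.36, 8.43 and 8.57 in the sorted replicates and 8.75 to 8.87 in the meristems. Sorted replicates 2 and 3 thus lay below every meristem array for SCN1. Of 25 listed genes of hair growth 4 were measured and 0 called (limma adjusted p = 0.595 for EXPA7 and 0.613 for EXPA18).

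Class III peroxidases use hydrogen peroxide to couple tyrosines of extensins. AT4G26010 (PRX44), a peroxidase of root hairs, read 6.87, 2.70 and 4.13 in the sorted replicates and 2.50 to 2.52 in the meristems. It therefore had the graded form seen in HRGP1. Its r to the mean extensin profile was 0.983. That r does not show the grading, since AT1G34510, at background in sorted replicates 2 and 3, had 0.986. AT1G34510 read 3.72, 2.31 and 2.58 in the sorted replicates and 2.28 to 2.30 in the meristems. Of 7 listed peroxidases 3 were measured and 0 called (limma adjusted p = 0.394 for AT4G26010, 0.522 for AT1G34510). The third, AT4G30170, differed in form: it was high in the meristems (10.42 to 10.91) and read 10.81, 5.82 and 9.52 in the sorted replicates, so sorted replicate 1 lay within the meristem range and the level was lowest in sorted replicate 2.

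The enzymes that modify extensins were expressed in both groups. SGT1 adds galactose to serine of the repeats, HPAT3 adds the first arabinose to hydroxyproline, and XEG113 and EXAD extend that arabinose chain. Of 12 listed enzymes 4 were measured and 0 called. SGT1 (AT3G01720) averaged 7.71 ± 1.04 after sorting and 8.39 ± 0.18 in whole meristems (SD, n = 3 each; limma adjusted p = 0.613). EXAD (AT3G57630) stood at 5.72 ± 0.93 and 6.36 ± 0.23 (SD, n = 3 each; limma adjusted p = 0.611). For all 4 enzymes the sorted samples were again in the order replicate 1, 3, 2. In sorted replicate 1 they lay above the meristem mean by 0.17 log2 (EXAD) to 0.97 log2 (HPAT3), less than 5 of the 6 extensins and more than AT3G54580 (0.14), and in sorted replicate 2 their distance ran from -1.74 (SGT1) to -0.34 log2 (XEG113).

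**Figure D4:**
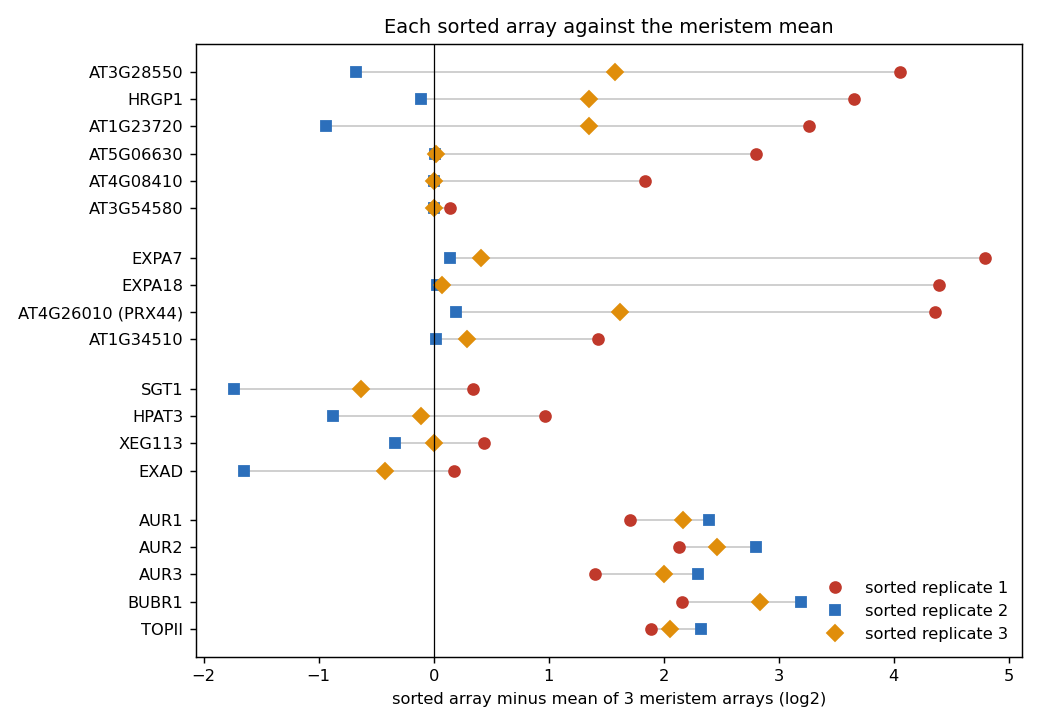
Each sorted array minus the mean of the 3 meristem arrays (log2) for the extensin genes, hair wall genes, extensin-modifying enzymes and G2/M genes, from top to bottom; circles, squares and diamonds are sorted replicates 1, 2 and 3. The hair wall genes drawn are EXPA7, EXPA18, AT4G26010 (PRX44) and AT1G34510. AT4G30170, XTH26 and SCN1, measured from the same lists, are not drawn. Among the genes drawn, sorted replicate 1 is the rightmost of the 3 for the extensins, hair wall genes and enzymes and the leftmost for the G2/M genes.

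Other genes of the extensin type were mostly at background. Of 12 other extensins 8 were measured, AT3G50580 and AT2G43150 among them, and all 8 stood within 0.5 of the floor on all arrays. LRX proteins join a leucine-rich repeat domain to an extensin domain. Of 11 listed LRX-type genes 8 were measured, 6 at background on all arrays and 0 called; LRX5 (AT4G18670) differed by -0.35 log2 (limma adjusted p = 0.388), and LRX6 (AT3G22800) stood at background. The difference between these list levels and the root hair extensins was not tested.

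Genes upstream of the hair were sparsely covered. Of 7 root hair transcription factors only RSL3 (AT2G14760), a basic helix-loop-helix factor, was measured, and it stood at the floor on all arrays. Of 10 genes of epidermal patterning only TRY, a small MYB protein that counteracts the non-hair fate, was measured. It read 3.84, 5.01 and 4.51 in the sorted replicates and 3.56, 3.93 and 3.52 in the meristems, a difference of 0.78 log2 (limma adjusted p = 0.273). Here sorted replicate 1 was the lowest sorted sample, unlike for the extensins.

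G2/M genes stood in the opposite order to HRGP1, AT1G23720 and AT3G28550 among the sorted samples. All 5 measured genes of 12 listed rose in the sorted cells (4.44% of all probe sets were called higher), and each was highest in replicate 2, then 3, then 1, an order found in 39.9% of probe sets above background. AUR1, an Aurora kinase of mitosis, exceeded its meristem mean by 1.71, 2.39 and 2.17 log2 in the sorted replicates, in numerical order (limma adjusted p = 0.00851). The spindle checkpoint gene BUBR1 exceeded its own by 2.16, 3.20 and 2.84 (adjusted p = 0.0126). AUR2, AUR3 and TOPII, a DNA topoisomerase, gave limma adjusted p-values of 0.00594, 0.0226 and 0.00357. With the replicate number as a block 0 of these 5 were called, where 1.03% of all probe sets were (limma adjusted p between 0.0569 and 0.130), and AUR3 and BUBR1 lost their calls without sorted replicate 3 or any 1 meristem array. All 5 were thus raised in every sorted sample, replicate 1 included.

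Markers of the ground tissue were low in every sorted sample. Both measured cortex genes of 5 cortex and endodermis genes fell (7.06% of all probe sets were called lower). PEP (AT1G09750) read 3.42, 3.11 and 2.54 in the sorted replicates and 7.14 to 7.91 in the meristems (limma adjusted p = 0.00512). CO2 (AT1G62500) read 3.38 to 3.51 and 4.10 to 4.43 (limma adjusted p = 0.0191; 0.129 with the replicate block, 0.0860 with a trended robust prior, 0.0781 with the spike-in block, and 0.0555 to 0.0709 in 4 of the 6 fits that leave out 1 array). The 4 stele genes and 6 root cap and niche genes had no probe set named here. In bulk RNA, fewer cells of a type and less RNA per cell cannot be told apart, and the part of spike-ins, handling or cell makeup in the values of sorted replicate 1 was not tested.

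The genes most like the extensins were found by Pearson's r over the 6 arrays with the mean profile of the 5 extensins above background. Among 812 named genes with a range of at least 2 log2, r reached 0.95 for 91 and 0.99 for 10. Of those 91, 48 had a meristem mean at background. The 6 highest were SP1L4 (r = 0.998), a SPIRAL1-like gene of a family of microtubule-associated proteins, AT4G13440 (0.993), AT5G01610 (0.992), AT4G20860 (0.992), an oxidase of the berberine bridge enzyme family, AT4G30460 (0.991), a glycine-rich protein, and AT1G27200 (0.991). SP1L4 read 7.53, 4.00 and 5.12 in the sorted replicates and 4.25 to 4.57 in the meristems, so it was expressed in both groups. AT4G30460 read 5.87, 2.81 and 3.84 in the sorted replicates and 2.52 to 2.88 in the meristems. None of the 6 was called between the groups by limma (adjusted p between 0.439 and 0.629). With 6 arrays, and 1 of them far above the rest, r depends heavily on the height of sorted replicate 1 and was not computed without it.

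**Figure D5:**
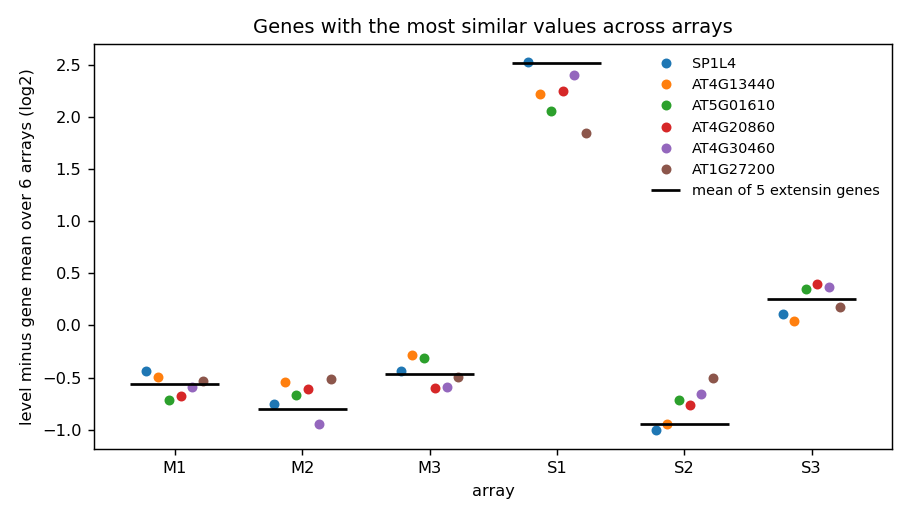
Level minus the gene's own mean over the 6 arrays (log2) for the 6 genes most like the extensins (points) and for the mean of the 5 extensins above background (bars), on meristem arrays M1 to M3 and sorted arrays S1 to S3. The bars stand at 2.52 in sorted replicate 1, 0.25 in sorted replicate 3 and -0.95 in sorted replicate 2, and the points follow them.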

How the data were processed

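The deposited table held 22810 probe sets of the Affymetrix ATH1 array; 64 control probe sets were left out of the tests. Per the submitters' processing notes the authors made these log2 values with GCRMA, whose version is not given in the sources used here. Probe sets were named through the platform annotation and updated by gene identifier to RefSeq assembly TAIR10.1 (13436 probe sets matched); the files name no build, so no coordinates are given. Sorted and meristem arrays were tested with lmFit and eBayes of limma 3.58.1, run under R 4.3.3, on the values as deposited, without filter or covariate. Benjamini-Hochberg adjustment ran over 22746 probe sets, a call is an adjusted p under 0.05, and the fit was tested on simulated data. For a list gene with several probe sets, that with the highest mean was used.

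The members and gene lists were chosen with earlier results of these data known. From each list the text names up to 4 called genes with the largest change or, where none was called, the 2 with the smallest p. The 6 genes most like the members are named too. AT4G30170, AUR3, XTH26, SCN1, HPAT3, XEG113, RSL3 and GH9C1 fall outside these rules or were named after their values were seen. The list entry PRX73 was left out because its locus carries another symbol. Same-numbered samples deviated together weakly from their group means (r = 0.122, 0.249 and 0.106 for replicates 1, 2 and 3). For unlike numbers r ran from -0.229 to 0.050. Deviations cancel within a group of 3, so positive r for some pairs goes with negative r for others. These values therefore cannot establish that same-numbered samples were paired. The reported fit leaves the replicate number out and called 2614 probe sets. The replicate block takes it in and called 235, so the calls depend on this choice. Alternatives were the replicate block, a trended robust prior, a filter at the median level, centring on 5 reference genes or on expressed probe sets, array weights, a spike-in block and leaving out each array. A second threshold for 1 profile count was added after seeing the data.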

Additional observations from a re-analysis of the deposited data

How the results depend on the processing

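No extensin gene tested was called under 11 of the 13 alternatives, of which the filter at the median level tested 3 of the 6. The exceptions were 3 called higher with the spike-in block and 3 with array weights (HRGP1, AT1G23720 and AT3G28550), which gave sorted replicate 3 a weight of 16.2 and sorted replicates 1 and 2 weights of 0.168 and 0.205; their estimation ended with a convergence warning. With 1 array left out, 0 of the 6 genes were called in either direction. Their median difference of 1.08 log2 became 3.03 with the spike-in block and ranged from 0.11 to 1.86 with 1 array left out. None of the extensin differences tested changed sign. Some differences of list genes did: with the spike-in block SGT1 went from -0.68 to 0.34 log2, EXAD from -0.63 to 0.17 and AT4G30170 from -1.92 to 0.18. Calls over all probe sets, 1009 higher and 1605 lower, were 79 and 156 with the replicate block, 516 and 733 with the trended robust prior, and 5023 and 4091 with array weights. Higher calls were 1645 with the filter, 3290 with centring on reference genes and 1631 with the spike-in block. With 1 array left out they ranged from 323 to 1752 higher and from 636 to 1631 lower. Reference-gene centring shifted the median over all probe sets by 0.14 log2 and the share of higher calls from 38.6% to 66.0%. UBC21, a reference gene used for it, was itself called lower in the sorted cells (-0.54 log2, limma adjusted p = 0.0220). In the gene lists, 5 higher and 2 lower calls became 0 and 1 with the replicate block. They became 8 higher and 2 lower with array weights, and 12 higher and 1 lower with the spike-in block. Of all probe sets, 11.5% were called in either direction in the reported fit. That share was 1.03% with the replicate block, 40.1% with array weights and 13.4% with the spike-in block. In the lists the trended prior left 1 lower call, and leaving out 1 array gave 3 to 5 higher and 1 to 2 lower. The cause of these shifts was not tested. The replicate block changed no call of an extensin gene (limma adjusted p between 0.512 and 0.650). A rise of at least 1 log2 in sorted replicate 1 with sorted replicate 2 within 0.5 of the meristem mean was found for 449 probe sets, and one of at least 2 log2 for 189, a threshold chosen after seeing the data.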

Other observations

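GH9C1, an endo-glucanase of cellulose known from root hairs, had rank 10 among the genes most like the extensins and was picked after its values were seen. It read 6.64, 2.28 and 3.41 log2 in sorted replicates 1, 2 and 3 and 2.27 on all 3 meristem arrays, so it was above background in sorted replicates 1 and 3. The group difference was 1.84 log2 (SE 1.25, limma adjusted p = 0.495).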
